A study of Homo sapiens with 12 samples.

Results

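The genes described here are 10 genes for gastric and intestinal mucins and trefoil peptides, MUC1, MUC2, MUC5AC, MUC5B, MUC6, MUC13, MUC20, TFF1, TFF2 and TFF3, of 34595 genes with a value on the arrays. They were chosen by name as the products that mark mucous cells of the stomach and intestine. The rule uses no measured value, but it was set with earlier results of these data known. All 10 have a row, and 8 of them lay above a detection floor of 32.7 intensity units on at least 2 arrays and were tested.

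The arrays carry RNA of KATO-III, SNU-216 and SNU-601, established human gastric cancer cell lines, each sorted by flow cytometry on CD133, a membrane glycoprotein encoded by PROM1 that is used as a marker of cancer stem cells. The CD133+ fraction of a line held its 10% most fluorescent cells and the CD133- fraction the 6% least fluorescent, so cells of intermediate staining are in neither. The deposited design text writes SNU201 where the array labels and the study's own text write SNU-216, and the labels were followed. All lines were grown in the same medium with calf serum, and no drug or genetic change is named for any of them. Each of the 6 sorted populations was hybridized on 2 arrays, 12 in all, and whether the 2 come from separate sorts is not given in the sources used here, so that the p-values measure only the spread between these arrays, which may be technical. A sorted fraction is a pool of cells, and fewer cells that make a transcript cannot be told apart from less of it per cell.

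Mucins are large glycoproteins whose serine- and threonine-rich repeats carry dense O-linked sugar chains. Gel-forming mucins are secreted and build the mucus layer, whereas membrane mucins stay anchored in the apical surface. Trefoil peptides are small, disulfide-stabilized proteins packed and secreted with mucins, and they take part in mucosal repair. In the normal stomach, surface (foveolar) cells make MUC5AC and TFF1, mucous neck and pyloric gland cells make MUC6 and TFF2, and MUC2 and TFF3 are typical of intestinal goblet cells.

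Promoter sequences are shown for the members that the RefSeq promoter table holds, 3 of the 10, because they place measured and undetected members of this family side by side: MUC1 and MUC13 were bright in KATO-III and SNU-601, and MUC2 was near the floor everywhere. Each sequence has 300 bases of build GRCh38.p14, most of them upstream of the start of the gene and the rest just after it, 5′ to 3′ on the gene's own strand. MUC1 lies on the minus strand at chr1:155192866-155193165, MUC2 on the plus strand at chr11:1074624-1074923 and MUC13 on the minus strand at chr3:124934702-124935001.
MUC1: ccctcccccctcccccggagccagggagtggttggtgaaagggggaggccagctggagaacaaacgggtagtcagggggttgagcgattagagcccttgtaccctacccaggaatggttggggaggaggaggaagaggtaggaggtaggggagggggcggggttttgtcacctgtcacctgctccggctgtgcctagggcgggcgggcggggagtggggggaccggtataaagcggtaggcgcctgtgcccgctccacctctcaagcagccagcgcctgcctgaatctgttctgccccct
MUC2: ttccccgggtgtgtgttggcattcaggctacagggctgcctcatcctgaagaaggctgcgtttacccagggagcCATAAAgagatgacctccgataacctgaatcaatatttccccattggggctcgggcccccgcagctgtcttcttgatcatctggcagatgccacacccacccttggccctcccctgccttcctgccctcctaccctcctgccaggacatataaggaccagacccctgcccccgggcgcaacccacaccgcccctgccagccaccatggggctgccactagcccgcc
MUC13: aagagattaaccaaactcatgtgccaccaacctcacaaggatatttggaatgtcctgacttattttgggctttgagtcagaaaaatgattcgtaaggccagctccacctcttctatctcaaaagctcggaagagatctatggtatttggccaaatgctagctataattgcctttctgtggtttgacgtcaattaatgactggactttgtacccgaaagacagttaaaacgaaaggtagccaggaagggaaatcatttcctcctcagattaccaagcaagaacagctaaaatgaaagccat
Capitals mark a match to a motif. Both strands were searched for TGTTTAC or TGTTTGC (the FOXA motif), AGATAA (the GATA motif) and TTTATG (the CDX motif), and with 1 match in all, no matches overlapped. The MUC2 sequence holds 1 match, CDX on the strand opposite the gene with its first base at -176 from the start, and the MUC1 and MUC13 sequences shown hold none. The promoter table has 2 entries for MUC1, and only the first was searched and is shown. Of all 35116 promoters in the table, 7.17% hold a FOXA match, 10.3% a GATA match and 10.6% a CDX match. The GC content was 65.7% for MUC1, 62.0% for MUC2 and 41.0% for MUC13. MUC5AC, MUC5B, MUC6, MUC20, TFF1, TFF2 and TFF3 are named only.

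In RefSeq gene order the family lies partly in clusters. TFF3, TFF2 and TFF1 are neighbours on chromosome 21 with 0 protein-coding genes between them, and MUC2, MUC5AC and MUC5B are neighbours on chromosome 11, with MUC6 next to MUC2 across 1 gene model, LOC124902605. MUC20 has MUC4 as its neighbour on chromosome 3. A pseudogene copy, MUC20P1, carries a similar name, so the MUC20 row is uncertain where the probe could bind both.

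Before the members, the sort was checked and the arrays were described. PROM1 intensity in CD133+ and CD133- cells was 9513 and 8847 against 4056 and 4493 in KATO-III, 9273 and 8773 against 2232 and 2219 in SNU-216, and 4877 and 4677 against 1315 and 1324 in SNU-601. The CD133+ arrays were above the CD133- arrays in every line, by 1.10, 2.02 and 1.86 on the log2 scale, and in KATO-III this gap was smaller than in SNU-216 by a log2 difference of 0.92 (limma, adjusted p = 7.46e-05) and than in SNU-601 by 0.75 (adjusted p = 0.000246). Per array, 16320 to 16474 genes exceeded the floor, and the median intensity was 26.0 to 27.1. The deposited values were quantile-normalized, which makes such figures nearly equal on all arrays, so they do not test array quality. All 6 epithelial marker genes were above the floor in every population, with summed intensities of 54947 to 65089. Intensities of different genes come from different probes and are not set against each other.

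**Figure D1:**
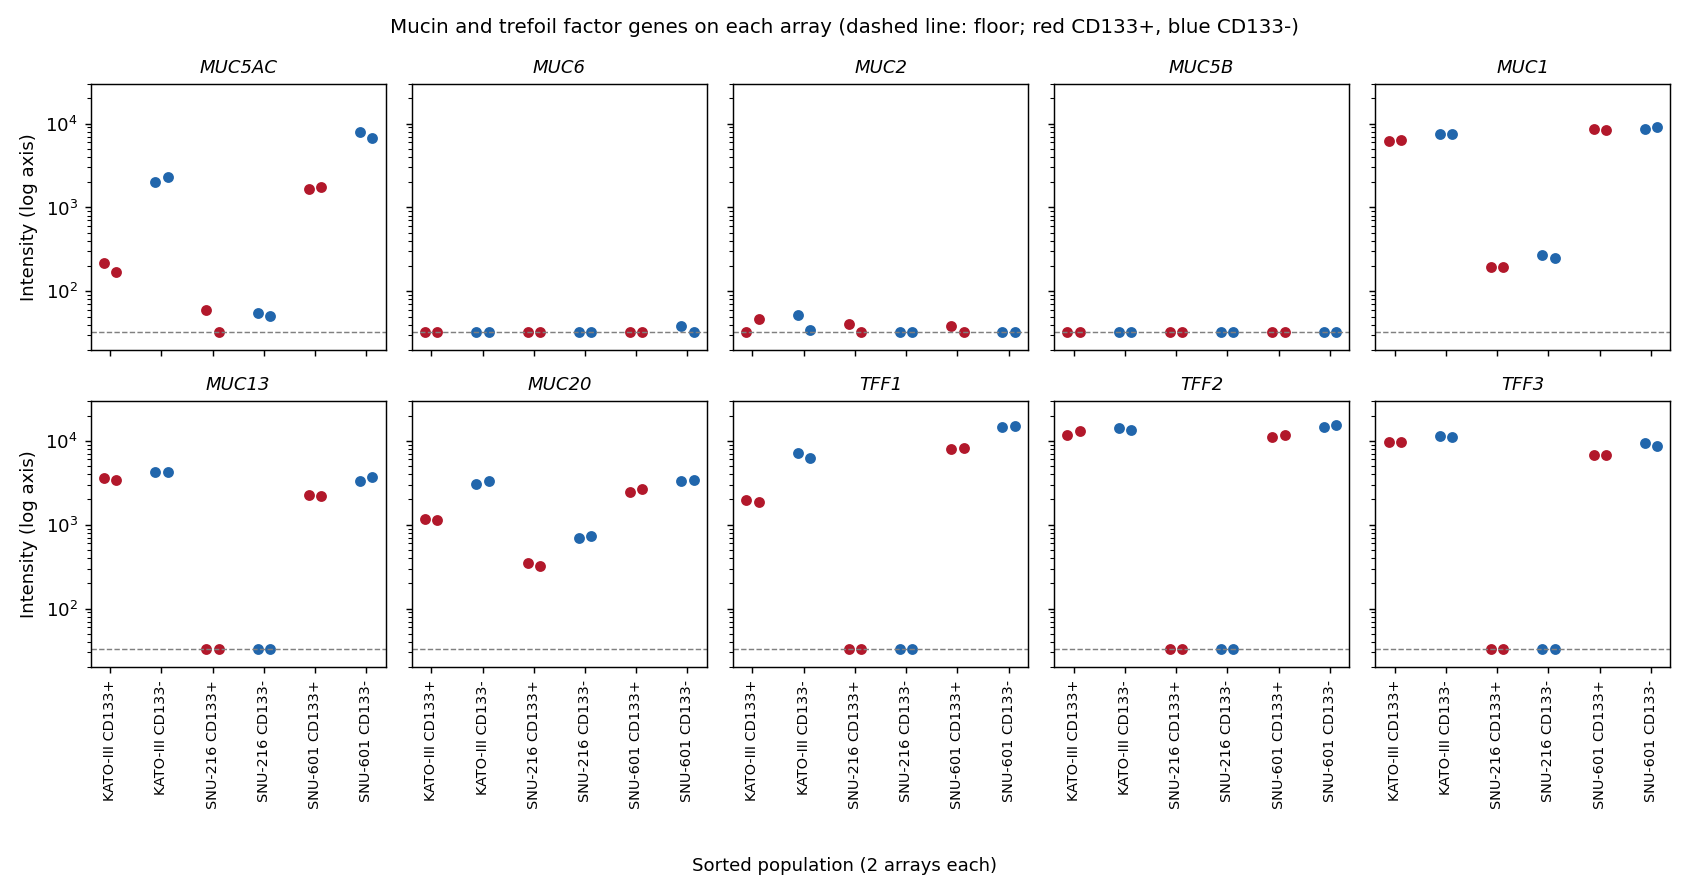
Intensity (log axis) of each member on the 12 arrays, with 1 panel per gene, red points for CD133+ and blue points for CD133- cells, and values under the floor of 32.7 drawn on the dashed line. MUC13, TFF1, TFF2 and TFF3 sit on the floor on all SNU-216 arrays, MUC6, MUC2 and MUC5B lie at or near it in all lines, and the MUC5AC, MUC20 and TFF1 points of KATO-III and SNU-601 are lower in CD133+ than in CD133- cells.

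Among the secreted gel-forming mucins, MUC5AC was the only member well above the floor, and it was lower in CD133+ cells of KATO-III and SNU-601. MUC5AC, the main gel-forming mucin of the gastric surface, measured 219 and 168 in KATO-III CD133+ cells and 2011 and 2341 in KATO-III CD133- cells. In SNU-601 its intensity was 1648 and 1766 in CD133+ and 7876 and 6653 in CD133- cells. Neither pair of fractions overlapped, and the SNU-601 CD133+ arrays were below the KATO-III CD133- arrays. In SNU-216 the gene measured 59.6 and 25.1 in CD133+ and 55.0 and 50.4 in CD133- cells, 1 array of the 4 lying under the floor and the fractions overlapping.

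The CD133+ minus CD133- log2 difference of MUC5AC was -3.50 ± 0.25 (SE, n = 2 arrays against 2) in KATO-III, an 11.3-fold lower level (limma, adjusted p = 1.16e-05), and -2.08 ± 0.25 in SNU-601, a 4.24-fold lower level (limma, adjusted p = 0.00107). In SNU-216 it was -0.25 ± 0.25 (limma, adjusted p = 0.548), and without the CD133+ array of 59.6 it was -0.69 (limma, adjusted p = 0.0348), a value that then rests on 1 array at the floor, and without that array it was 0.18. The MUC5AC change in KATO-III was larger than in SNU-601 by a log2 difference of -1.42 (limma, adjusted p = 0.015). Without replicate 2 of any of the 4 KATO-III and SNU-601 populations, this adjusted p was 0.0535 to 0.0754, and it was 0.0518 with a floor of 16 and 0.0634 with no filter on dim genes.

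MUC6, the gel-forming mucin of gastric glands, lay above the floor on 1 of the 12 arrays, at 38.9 in SNU-601 CD133- cells, and between -2.59 and 32.1 on the others. MUC5B, a gel-forming mucin of airway and gland secretions, lay between -21.3 and 18.8 and above the floor on 0 arrays. MUC2, the goblet cell mucin of the intestine, was above the floor on 5 arrays and reached at most 52.6. These 3 genes were thus not detected or barely detected in any line or fraction, and this says nothing of their probes' sensitivity.

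MUC2 measured 8.76 and 47.2 in CD133+ and 52.6 and 34.4 in CD133- KATO-III cells, 40.7 and 22.0 against 30.3 and 18.0 in SNU-216, and 38.6 and 20.8 against 22.7 and 12.3 in SNU-601. The fractions overlapped in each line. The log2 difference of MUC2 between the fractions was -0.11 in KATO-III (95% interval -0.65 to 0.42), where 3 of 4 arrays lay above the floor, and in SNU-216 and SNU-601 only 1 of 4 arrays did.

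The membrane mucins MUC1, MUC13 and MUC20 were all bright in KATO-III and SNU-601, and SNU-216 held MUC1 and MUC20 at lower levels and no measurable MUC13. MUC20 was lower in CD133+ cells of all 3 lines. Its intensity was 1164 and 1144 in CD133+ against 3034 and 3323 in CD133- KATO-III cells, 351 and 321 against 699.6 and 740.5 in SNU-216, and 2455 and 2697 against 3280.2 and 3440.3 in SNU-601. The fractions were apart in each line, and the SNU-601 CD133+ level was above both SNU-216 fractions.

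MUC20, a small membrane mucin, had log2 differences of -1.46 ± 0.07 (SE, n = 2 against 2) in KATO-III, a 2.75-fold lower level (limma, adjusted p = 1.61e-06), -1.10 in SNU-216, 2.14-fold lower (adjusted p = 1.43e-05), and -0.38 in SNU-601, 1.31-fold lower (adjusted p = 0.00699). Only MUC1, MUC5AC and MUC20 had at least 2 arrays above the floor in every line, and of these MUC20 alone was called lower in all 3. The share of all genes called lower in all 3 lines was not counted. The change differed between each pair of lines, by a log2 difference of -0.36 for KATO-III minus SNU-216 (adjusted p = 0.0226), -1.08 for KATO-III minus SNU-601 (adjusted p = 9.41e-05) and -0.71 for SNU-216 minus SNU-601 (adjusted p = 0.000903). The first of these was not called (adjusted p = 0.0565 to 0.0787) without KATO-III CD133+ replicate 1 or 2, KATO-III CD133- replicate 2, SNU-216 CD133+ replicate 1 or SNU-216 CD133- replicate 1, nor with no filter on dim genes (0.0556).

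MUC1, the transmembrane mucin found on most glandular epithelia, measured 6155 and 6453 in CD133+ against 7555 and 7446 in CD133- KATO-III cells. In SNU-216 it was 197 on both CD133+ arrays and 269 and 247 on the CD133- arrays, and in SNU-601 8654 and 8422 against 8614 and 9159. The fractions were apart in KATO-III and SNU-216 and overlapped in SNU-601. The log2 difference was -0.25 ± 0.05 (SE, n = 2 against 2, limma, adjusted p = 0.00503) in KATO-III and -0.38 (adjusted p = 0.000764) in SNU-216, 1.19-fold and 1.31-fold lower levels. In SNU-601 it was -0.06 with a 95% interval of -0.18 to 0.06 (adjusted p = 0.57). The SNU-216 change differed from that in SNU-601 by -0.33 (adjusted p = 0.0107), and with an offset of 100 in place of the floor by -0.21, which was not called (adjusted p = 0.0762).

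MUC13, a membrane mucin of gastrointestinal epithelium, measured 3577 and 3411 in CD133+ against 4197 and 4282 in CD133- KATO-III cells, and 2248 and 2224 against 3305 and 3706 in SNU-601. In SNU-216 it ranged from -3.47 to 24.8, under the floor on all 4 arrays. The CD133+ arrays lay below the CD133- arrays in both lines that expressed it. The log2 difference was -0.28 ± 0.06 (SE, n = 2 against 2) in KATO-III (limma, adjusted p = 0.00647), 1.21-fold lower, and -0.65 in SNU-601 (limma, adjusted p = 0.000427), 1.57-fold lower. Here the SNU-601 change was the larger, by a log2 difference of 0.37 (adjusted p = 0.0125), the opposite order to that of MUC5AC and MUC20. With a floor of 16, the adjusted p was 0.233 for the KATO-III change and 0.306 for this difference, and with an offset of 100 the difference had 0.0669.

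The trefoil peptides were bright in KATO-III and SNU-601 and under the floor on every SNU-216 array. TFF1, the trefoil peptide of surface mucous cells, showed the largest change of these 3 genes. It measured 1966 and 1876 in CD133+ against 7069 and 6207 in CD133- KATO-III cells, and 7941 and 8111 against 14781 and 15243 in SNU-601, with -18.9 to -0.594 in SNU-216. The fractions did not overlap in either line, and both SNU-601 CD133+ arrays were above the KATO-III CD133- arrays. The log2 difference was -1.79 ± 0.06 (SE, n = 2 against 2) in KATO-III, 3.45-fold lower (limma, adjusted p = 3.68e-07), and -0.90 in SNU-601, 1.87-fold lower (limma, adjusted p = 0.000117). The KATO-III change exceeded that in SNU-601 by a log2 difference of -0.88 (adjusted p = 0.000146).

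TFF2, the trefoil peptide of mucous neck and antral gland cells, measured 11821 and 13059 in CD133+ against 14102 and 13441 in CD133- KATO-III cells, and 11229 and 11710.1 against 14439 and 15289.8 in SNU-601. SNU-216 gave -10.7 to -0.435. The CD133+ arrays were the lower in both expressing lines, and in KATO-III the nearest arrays of the fractions were close. The log2 difference of TFF2 was -0.37 in SNU-601 (limma, adjusted p = 0.00304), 1.30-fold lower. In KATO-III it was -0.15 with a 95% interval of -0.28 to -0.02 and an adjusted p of 0.0706, and without the CD133+ array of 13059 the adjusted p was 0.0185. The difference between the lines, 0.23 on the log2 scale, was not called (adjusted p = 0.0655), and without KATO-III CD133+ replicate 1 its adjusted p was 0.019, and with a floor of 100 it was 0.0464.

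TFF3, the trefoil peptide of intestinal goblet cells, measured 9641 and 9807 in CD133+ against 11533 and 11066 in CD133- KATO-III cells, and 6775 and 6869 against 9513 and 8669 in SNU-601, with -15.2 to 0.540 in SNU-216. Again each CD133+ array was below the CD133- arrays of its line. The log2 difference was -0.22 ± 0.05 (SE, n = 2 against 2) in KATO-III (limma, adjusted p = 0.00874), 1.16-fold lower, and -0.41 in SNU-601 (limma, adjusted p = 0.00122), 1.33-fold lower. The changes of the lines differed by 0.20 on the log2 scale (adjusted p = 0.0718), and by 0.26 without SNU-601 CD133- replicate 2 (adjusted p = 0.0197). The KATO-III adjusted p was 0.0561 without the CD133- array of 11533 and 0.0505 with an offset of 100 in place of the floor.

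**Figure D2:**
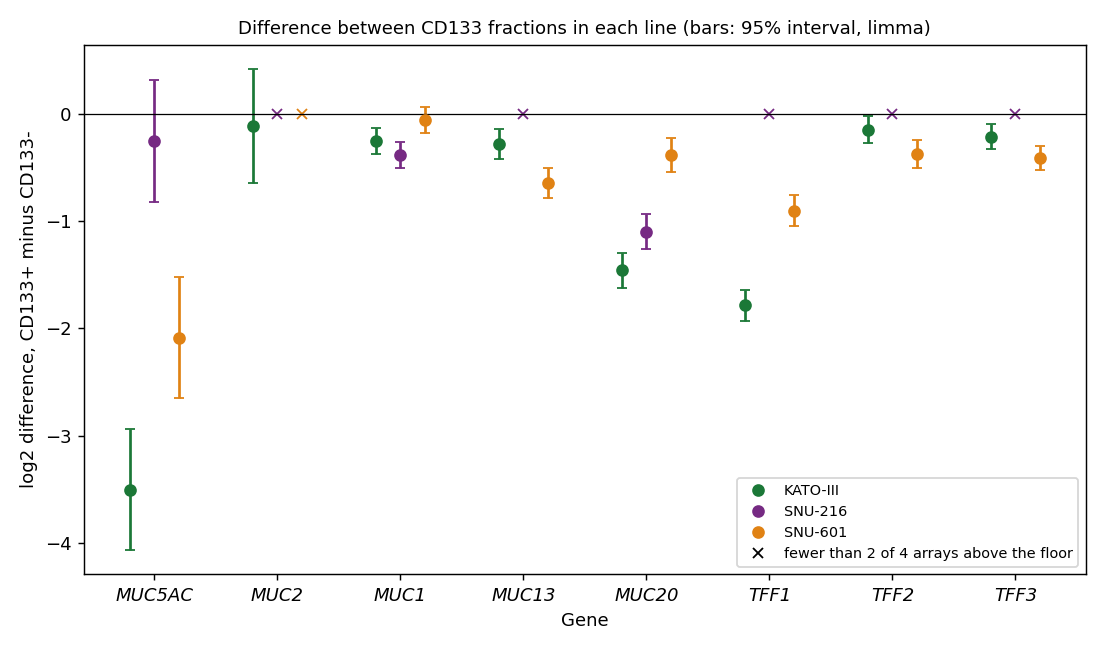
Log2 difference (CD133+ minus CD133-, vertical axis) of the 8 tested members in each line, with points for limma estimates from 2 arrays against 2 and bars for 95% intervals, and crosses at 0 where fewer than 2 of a line's 4 arrays lay above the floor. No member lies above 0 with an interval that leaves 0 out, and the lowest point is MUC5AC in KATO-III at -3.50.

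Counted by line, 6 of the 8 tested members fell in CD133+ cells of KATO-III (MUC1, MUC5AC, MUC13, MUC20, TFF1 and TFF3), where 20.6% of all genes tested fell, and 0 rose, where 18.7% of all genes did. In SNU-601, 6 of 8 fell (MUC5AC, MUC13, MUC20 and the 3 trefoil genes), beside 7.78% of all genes tested, and 0 rose, beside 8.59%. In SNU-216, 2 fell (MUC1 and MUC20), beside 14% of all genes, and 0 rose, beside 14.6%. SNU-216 could show a change in only 3 members, those with at least 2 arrays above the floor. The median log2 difference of the members was -0.27 in KATO-III, -0.40 in SNU-601 and, over the 3 measured members, -0.38 in SNU-216, and the median of all genes tested was 0 in each line.

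The PROM1 gap was smallest in KATO-III, where MUC5AC, MUC20 and TFF1 changed most, and MUC13 changed most in SNU-601. In a fit over all lines, with line as a block, 3 members fell (MUC5AC, MUC20 and TFF1), beside 2.11% of all genes tested, with log2 differences of -1.95 ± 0.42 (SE, n = 6 arrays against 6, limma, adjusted p = 0.03), -0.98 ± 0.14 (adjusted p = 0.00909) and -0.90 ± 0.22 (adjusted p = 0.0449). MUC1 had -0.23 (adjusted p = 0.0562), and MUC13, TFF2 and TFF3 had adjusted p-values of 0.0943, 0.153 and 0.11, each with SNU-216 held at 0 by the floor, as for TFF1. In 0 members was a rise called, beside 2.62% of all genes. The fit treats both arrays of a population as separate samples. When they were averaged first or set as a random block, limma called 0 members, beside 0 and 1 of all 20147 genes tested. At an unadjusted p under 0.05 there were 3 and 6 of the 8 members, beside 992 and 2297 of all genes tested. Without any single KATO-III array, only MUC20 remained called, with adjusted p-values of 0.0741 to 0.0822 for MUC5AC and 0.103 to 0.115 for TFF1, and TFF1 also lost the call without any SNU-601 array (0.0689 to 0.0712) and without SNU-216 CD133+ replicate 1 or CD133- replicate 2 (0.0506 and 0.0511). MUC5AC had 0.0501 without SNU-601 CD133- replicate 1, and MUC1 0.0465 without that array. With no filter on dim genes MUC5AC had 0.0994 and TFF1 0.142, TFF1 also had 0.0506 with a floor of 16 and 0.0592 without limma's trend, and MUC1 had 0.0468 with a floor of 100.

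The change with the CD133 fraction differed among the 3 lines for 7 of the 8 members by limma's F-test, all but MUC2, beside 44.4% of all genes tested. Between pairs of lines, 32% of all genes tested differed for KATO-III minus SNU-216, 30.1% for KATO-III minus SNU-601 and 28.2% for SNU-216 minus SNU-601. For MUC5AC the floor kept the SNU-216 change from going below -0.69, so its differences from SNU-216 were set by the floor. The SNU-216 change of MUC13, TFF1, TFF2 and TFF3 is 0 by the floor, so for these genes only the comparison of KATO-III with SNU-601 rests on measured changes. There, MUC5AC, MUC20 and TFF1 fell more in KATO-III and MUC13 fell more in SNU-601, as given above.

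SNU-216 was the line with the low levels. Averaged over fractions, 7 of 8 members were higher in KATO-III than in SNU-216, beside 30.3% of all genes tested, and 7 were lower in SNU-216 than in SNU-601, beside 27.1%. Members that passed the filter through KATO-III and SNU-601 alone had to differ from SNU-216, so these counts are a description. MUC1 was 30.5-fold and MUC20 3.89-fold higher in KATO-III than in SNU-216, and MUC5AC 13.4-fold (limma, adjusted p at most 6.47e-08), a log2 difference of 3.74 with 1 SNU-216 array under the floor, which was 2.47 with an offset of 100 in place of the floor. MUC13, TFF1, TFF2 and TFF3 were at least 118-fold, 109-fold, 400-fold and 321-fold higher, since SNU-216 lay at the floor. These bounds move with the floor: the log2 differences of 6.88, 6.77, 8.64 and 8.32 behind them were 5.27, 5.16, 7.03 and 6.71 with a floor of 100.

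KATO-III and SNU-601 were nearer to each other. MUC5AC, TFF1, MUC20 and MUC1 were 5.45-fold, 3.08-fold, 1.54-fold and 1.27-fold higher in SNU-601 (limma, adjusted p from 2.57e-09 to 3.62e-05), so 4 members were lower in KATO-III, beside 29.9% of all genes tested. MUC13 and TFF3 were 1.38-fold and 1.33-fold higher in KATO-III (adjusted p = 1.31e-05 and 7.04e-06), beside 28.7%. For TFF2 the log2 difference was 0.00 with a 95% interval of -0.09 to 0.09. By line order, MUC5AC, TFF1, MUC20 and MUC1 ran from SNU-601 to KATO-III to SNU-216, MUC13 and TFF3 from KATO-III to SNU-601 to SNU-216, and for TFF2 the 2 expressing lines did not differ beyond their spread.

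Among 12 other mucin genes listed, 11 have a row and 5 were tested. MUC17, an intestinal membrane mucin, fell in KATO-III and SNU-601, and MUC4, a membrane mucin encoded next to MUC20, fell in SNU-216 and SNU-601. Of the 5, 1 fell in KATO-III, 1 in SNU-216 and 2 in SNU-601, beside 20.6%, 14% and 7.78% of all genes tested, and 0 rose in any line, beside 18.7%, 14.6% and 8.59%. MUC17 measured 468 and 463 in CD133+ against 5126 and 5259 in CD133- KATO-III cells, 244 and 205 against 936 and 914 in SNU-601, and -23.0 to -11.5 in SNU-216. Its levels did not overlap between fractions in the expressing lines, with log2 differences of -3.48 ± 0.09 in KATO-III (SE, n = 2 against 2, limma, adjusted p = 8.77e-08) and -2.05 in SNU-601 (adjusted p = 1.84e-05). These values stand beside the MUC5AC differences of -3.50 and -2.08.

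MUC4 measured 129 and 142 in CD133+ against 259.9 and 238 in CD133- cells of SNU-216, and 163 and 143 against 198 and 223 in SNU-601, while KATO-III stayed under the floor at -1.10 to 22.7. The fractions of both lines were apart, with log2 differences of -0.88 (limma, adjusted p = 0.000989) and -0.46 (adjusted p = 0.041). The SNU-601 call was lost without any of the 4 SNU-601 arrays (adjusted p = 0.0538 to 0.17), without either KATO-III CD133- array (0.0509 and 0.051) and under 6 other settings: arrays centred on their medians (0.0575), a floor of 16 (0.124), an offset of 100 (0.0707), no filter (0.0514), a repeated quantile normalization (0.0503) and a replicate block (0.0599). MUC16, the membrane mucin known as CA125, was named after its values were seen: it measured 1847 and 1852 in CD133+ and 1929.7 and 2262 in CD133- cells of SNU-216, 47.0 to 115 in SNU-601 and -0.990 to 34.3 in KATO-III. MUC16 was 31.4-fold higher in SNU-216 than in SNU-601 (adjusted p = 8.39e-09), so SNU-216, low in the members, was the line with the highest MUC16 level. It was not called between fractions in any line, though without the SNU-601 CD133- array of 60.3 the SNU-601 log2 difference was -1.29 (adjusted p = 0.00281).

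Of 23 genes listed for mucous secretory cells, 16 were tested, and in KATO-III 10 fell and 2 rose in CD133+ cells (median log2 difference -0.87), where 20.6% of all genes tested fell, 18.7% rose and the median was 0. BCAS1 measured 52.8 and 19.1 in CD133+ against 677 and 668 in CD133- KATO-III cells, and 202 and 158 against 297 and 272 in SNU-601. Its log2 difference in KATO-III was -4.02 ± 0.21 (SE, n = 2 against 2, limma, adjusted p = 2.37e-06), with 1 CD133+ array under the floor, and it was -2.52 with an offset of 100. In SNU-601 it was -0.67 (adjusted p = 0.0673, and 0.0184 to 0.0186 without either KATO-III CD133+ array, 0.00176 with a floor of 100 and 0.0184 with an offset of 100). CAPN9, a calpain of gastric surface cells, measured 38.1 and 29.2 against 195 and 157 in KATO-III, and 1107 and 1170.4 against 2038 and 2012 in SNU-601. CAPN9 fell in both lines, by a log2 difference of -2.31 (adjusted p = 3.34e-06) and -0.83 (adjusted p = 0.00353). In KATO-III 1 CD133+ array was under the floor, and the CAPN9 log2 difference there was -0.81 with a floor of 100 (adjusted p = 0.000111).

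ERN2, the stress sensor kinase IRE1 beta of mucus-secreting cells, measured 89.0 and 92.7 in CD133+ against 464 and 391 in CD133- KATO-III cells, 30.7 and 29.4 against 46.8 and 54.4 in SNU-216, and 382 and 308 against 495 and 432 in SNU-601. Its CD133+ arrays were below the CD133- arrays in all 3 lines. The log2 difference was -2.23 (limma, adjusted p = 8.72e-06) in KATO-III, and -1.46 there with an offset of 100. In SNU-216 it was -0.63 (adjusted p = 0.0133), with both CD133+ arrays under the floor, and the call was lost without either of them (0.0569 and 0.0556), without CD133- replicate 2 (0.0796), with an offset of 100 (0.166) and with a floor of 100, where all 4 arrays lie under it. In SNU-601 ERN2 had -0.43 (adjusted p = 0.0913, and 0.0258 with a floor of 100 and 0.0401 with an offset of 100).

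In SNU-216, 1 of the 16 genes of this secretory list fell (ERN2), beside 14% of all genes tested, and 3 rose, AGR2, CREB3L4 and KLF4, beside 14.6%. In SNU-601 4 fell, AGR3, CAPN9, PSCA and ST6GALNAC1, beside 7.78%, and 0 rose, beside 8.59%. The SNU-216 calls of CREB3L4 (adjusted p = 0.0129) and KLF4 (0.0154) were each lost without 1 array, CREB3L4 without any SNU-216 array (0.0593 to 0.0724) and KLF4 without CD133+ replicate 1 or either CD133- array (0.0586 to 0.0735), and both were lost with no filter (0.0565 and 0.0566). With a floor of 100, all 4 SNU-216 arrays of CREB3L4 lie under it and its difference is 0. The SNU-601 call of ST6GALNAC1 (0.0245) was lost without CD133+ replicate 1 or either CD133- array (0.0746 to 0.125) and with no filter (0.05001). Apart from ERN2 and CAPN9, these genes and SPDEF were named after their values were seen. AGR2, a protein disulfide isomerase needed for mucin folding, measured 185 and 129 in CD133+ against 27.0 and 38.3 in CD133- cells of SNU-216 (log2 difference 2.12, limma, adjusted p = 1.81e-05). There 1 CD133- array was under the floor, and with a floor of 100 the AGR2 difference was 0.62 (adjusted p = 0.00477). In KATO-III AGR2 measured 7983 and 8022 against 7969 and 8074. In SNU-601 it had means of 5163 in CD133+ against 6483 in CD133- cells. Its log2 difference there was -0.33 (limma, adjusted p = 0.171, and 0.0186 with an offset of 100). SPDEF, a transcription factor of goblet and mucous gland cells, was 164 and 149 in CD133+ against 115 and 80.8 in CD133- KATO-III cells (log2 difference 0.70, adjusted p = 0.0132), and 1073 and 1016 against 604 and 776 in SNU-601 (log2 difference 0.61, adjusted p = 0.0501, and 0.0246 to 0.025 without either KATO-III CD133- array and 0.00548 with a floor of 100). KLF4, the other gene that rose in KATO-III, had a log2 difference of 0.43 there (adjusted p = 0.0282), and of -0.32 in SNU-601 (limma, adjusted p = 0.141). The KATO-III adjusted p of SPDEF was 0.0851 without CD133+ replicate 1 0.0806 without CD133- replicate 2 and 0.0938 with an offset of 100, and that of KLF4 was 0.105 to 0.19 without any KATO-III array but CD133+ replicate 2 and 0.0886 with no filter.

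Of 19 enzymes listed that build mucin O-glycans, 17 were tested, and 5 rose and 5 fell in KATO-III CD133+ cells (median -0.03), beside 18.7% and 20.6% of all genes tested. In SNU-216 3 rose and 2 fell, beside 14.6% and 14%, and in SNU-601 0 rose and 1 fell, beside 8.59% and 7.78%. C1GALT1, which makes the core 1 structure, measured 393 and 413 in CD133+ against 124 and 162 in CD133- KATO-III cells and was 2.85-fold higher in CD133+ cells there (log2 difference 1.51, limma, adjusted p = 0.000636). FUT2, the secretor fucosyltransferase, measured 884 and 948 against 1831 and 1775 in KATO-III, and 23.1 and 22.4 against 68.2 and 97.6 in SNU-216. FUT2 fell 1.97-fold in KATO-III (adjusted p = 0.000537) and at least 2.50-fold in SNU-216 (adjusted p = 0.000186). With a floor of 100 all 4 SNU-216 arrays of FUT2 lie under it, the difference is 0 and the call ends (adjusted p = 1). In SNU-601 FUT2 had a log2 difference of -0.33 (adjusted p = 0.153, and 0.0103 to 0.0105 without either SNU-216 CD133- array, 0.0037 with a floor of 100 and 0.0146 with an offset of 100).

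GALNT3, which adds the first sugar of the chain, was dim throughout. It measured 30.1 and 22.6 in CD133+ cells of KATO-III, both under the floor, against 59.2 and 87.1 in CD133- cells, an at least 2.20-fold lower level (limma, adjusted p = 0.00604), and the log2 difference of -1.14 was -0.45 with an offset of 100. In SNU-601 GALNT3 measured 94.1 and 103 against 69.3 and 80.4 (log2 difference 0.40, adjusted p = 0.356). No gene of these lists was called in 1 direction in all 3 lines, which among the members only MUC20 was. Genes under the floor on all SNU-216 arrays could not be called there. Of the members, only MUC1, MUC5AC and MUC20 had at least 2 arrays above the floor in every line.

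**Figure D3:**
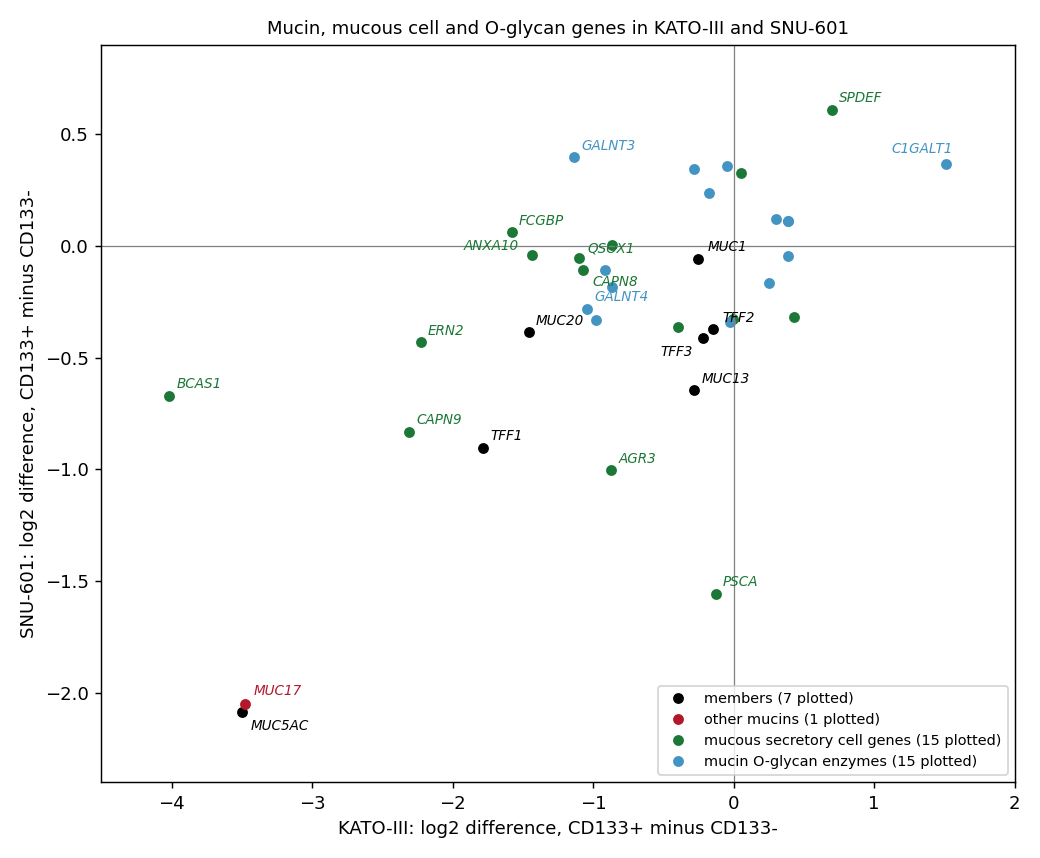
Log2 difference (CD133+ minus CD133-) in KATO-III (horizontal axis) against that in SNU-601 (vertical axis) for the members (black), other mucins (red), mucous secretory cell genes (green) and O-glycan enzymes (blue) with at least 2 arrays above the floor in both lines. MUC5AC and MUC17 lie together at the lower left (-3.50 and -3.48 in KATO-III), BCAS1 is far left at -4.02 with -0.67 in SNU-601, and C1GALT1 is far right at 1.51.

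The intensities of marker genes of gastric, intestinal and other cell types were summed on each array. A sum is weighted to its brightest probes, so it is no measure of a cell type's share. Of 8 foveolar markers, 5 (MUC5AC, TFF1, PSCA, ANXA10 and CAPN8) lay above the floor on both arrays of each KATO-III and SNU-601 population, and 0 or 1 in SNU-216. Their summed intensity was 4039 to 4042 in CD133+ and 13318 to 14353 in CD133- cells of KATO-III, 16082 to 16239 and 28848 to 30111 in SNU-601, and 34.1 to 91.9 in SNU-216. MUC5AC and TFF1 are in this sum, so it moves with them.

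Of 5 markers of mucous neck or pyloric gland cells, 2 or 3 were above the floor on both arrays of a KATO-III population, 3 or 4 in SNU-601 and 0 in SNU-216, and MUC6, a defining gene and a member, was above it on 1 of the 12 arrays only. TFF2 is in this sum. The sums were 16912 to 18284 in CD133+ against 16055 to 16745 in CD133- KATO-III cells, 13511 to 14218 against 16194 to 16944 in SNU-601, and 17.6 to 62.3 in SNU-216. The KATO-III sum was thus the higher in CD133+ cells, the opposite order to that of the foveolar sum. That order came from AQP5, a water channel in this list, which measured 5009.7 and 5136 against 2559 and 2541 there. TFF2, the brightest gene of the sum, had means of 12440 in CD133+ against 13772 in CD133- KATO-III cells, a difference not called. Of 6 chief cell markers, 0 to 2 were above the floor, with sums of 27.0 to 69.4 against 121 to 122 in KATO-III, 63.9 to 82.1 against 107 to 135 in SNU-216 and 2086 to 2249.8 against 1572 to 1652 in SNU-601. PGC, the gene of pepsinogen C and part of both lists, measured 2017 and 2221 in CD133+ against 1556 and 1436 in CD133- SNU-601 cells. The part of these genes in the result was not tested.

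Of 11 enterocyte markers, 4 to 6 were above the floor in the KATO-III and SNU-601 populations and 0 or 1 in SNU-216, with sums of 9865 to 10759 in CD133+ against 21153 to 22081 in CD133- cells of KATO-III, 17665 to 18857 against 23784 to 23870 in SNU-601, and 109 to 146 in SNU-216. CDH17, an intestinal cadherin and 1 of these markers, measured 1181 and 1214 in CD133+ against 7400.4 and 6082 in CD133- KATO-III cells. LGALS4 was also lower in CD133+ cells there (mean 6493 against 11697), as were CDX2 and KRT20, given below. The list was not uniform, since VIL1 (mean 960 against 817) and APOA1 (mean 344 against 283) were higher in CD133+ cells of KATO-III. The enterocyte sum was thus lower in CD133+ cells of the same lines in which the members were, and its part in the result was not tested.

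Of 7 goblet markers with a row, 4 or 5 were above the floor in KATO-III and SNU-601, but MUC2 was near the floor and the defining genes ATOH1 and CLCA1 were under it. The goblet sum, which holds the member TFF3, was 18519 to 18800 in CD133+ against 21543 to 21828 in CD133- KATO-III cells. It was 13159 to 13375 against 16350 to 16603 in SNU-601 and, in the other direction, 167 to 237 against 73.4 to 75.2 in SNU-216. Of 3 parietal cell markers, 0 were above the floor in any population. The enteroendocrine sum was 6638 to 7456 in CD133+ against 7930 to 8459 in CD133- cells of SNU-216, nearly all GAST, the gene of gastrin. It was 102 to 105 against 44.8 to 49.3 in KATO-III and 99.7 to 109.7 against 92.9 to 98.0 in SNU-601. The fibroblast sum was 117 to 172 in CD133+ and 777 to 830.2 in CD133- cells of KATO-III, with LUM at 64.4 and 91.6 against 743 and 783, with COL3A1 and DCN under the floor everywhere. Of 5 leukocyte markers PTPRC and CD3D were under the floor, LYZ measured 7078 and 7457 in CD133+ against 4747 and 4483 in CD133- KATO-III cells, and the summed list was 7973 to 8327 in CD133+ and 5813 to 6046 in CD133- cells of KATO-III. In the other lines the leukocyte sum was the lower in CD133+ cells, 10234 to 10284 against 10931 to 11667 in SNU-601 and 205 to 218 against 418 to 460.3 in SNU-216. The part of these genes in the result was not tested.

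The genes whose log2 pattern over the 12 arrays was most like that of a member were ranked by Pearson's r among 13832 genes with a range over 1. The arrays are 3 lines of 2 fractions, so a high r follows differences between lines and carries no p. The 3 most like MUC5AC were C5ORF41 (r = 0.991), LOC644844 (r = 0.99) and PRSS1 (r = 0.989), and for MUC20 they were TSPAN31, KIAA0649 and ICA1 (r = 0.989, 0.985 and 0.983). MUC13 had TFF3 among its 3 (r = 0.999, with AKR1B10 and PYCARD), and TFF3 had MUC13 (with RHOU and PYCARD). For MUC1 they were LAMP3, KLK11 and C9ORF152, for TFF1 UGT1A1, KLK1 and PPFIBP2, and for TFF2 ACSL5, PIP5K1B and FLJ12355. Between members, r ranged down to 0.83 for MUC5AC with TFF3 and MUC13 among the 7 that were clearly detected.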

How the data were processed

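The authors deposited 1 table of intensities from Illumina HT-12 v3 arrays, quantile-normalized per the study's methods, with BeadStudio named in the submitters' processing notes without a version. The scale is linear, from -56.4 to 23394, and with 32.1% of the values at 0 or less the files were already background-subtracted. The background estimate and the way of combining several probes per gene are not given in the sources used here. The table has 34688 rows, 93 of them without any value, and 0 columns were left unmapped.

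Values were raised to a floor of 32.7 (the absolute 1st percentile of the table) before log2 transformation. Genes exceeding that floor on 2 or more arrays, 20147 in number (58.2%), entered limma 3.58.1 (R 4.3.3) fits with a mean-variance trend and Benjamini-Hochberg adjustment over all of them, and called at an adjusted p under 0.05. Contrasts within lines, between lines and between the changes of lines came from 1 model of 6 population means with 6 residual degrees of freedom, so the groups share a spread. The fit over all lines had line as a block and 8 residual degrees of freedom. A fold against a group with no array above the floor is a lower bound. The number of arrays limits the precision, and the median SD of log2 values between the 2 arrays of a population was 0.07.

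The members and gene lists were chosen with earlier results of these data known. The named genes are the 10 members, PROM1, the genes of each list called in all lines in 1 direction or among the 3 with the largest called change in a line, and the 3 genes most like each member by Pearson's r. Single genes of the marker lists, such as AQP5, PGC, CDH17, LGALS4, VIL1, APOA1, GAST, LUM and LYZ, were named outside this rule with their values known. Other genes named outside it are said to be so. Alternatives were floors of 16 and 100, an offset of 100, other filters, no trend, other treatments of line and replicate, and leaving out each array. Data of 11674 genes, fewer than the 20147 tested, were simulated with 200 genes lowered by 1 on the log2 scale. In them limma recovered 83.5% for KATO-III with 10 false calls, 73.0% for the difference between lines with 2, and 97.5% over all lines with 10. The lowering had a single size, whereas the measured change differed between lines for 44.4% of all genes tested. With arrays of a population averaged first or population as a random block, the measured data gave 0 and 1 calls over all lines. The 97.5% is thus no measure of how the fit over all lines performs on the measured data. Promoters came from RefSeq tables. Python 3.11.15, pandas 2.3.3 and matplotlib 3.10.9 were used for tables and figures.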

Additional observations from a re-analysis of the deposited data

Results flagged for a closer look

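For 5 members, 9 differences in the CD133+ minus CD133- change between lines passed limma's test of the difference itself, over pairs of lines in which the gene was measured above the floor. Such differences were common among all genes tested: 32% for KATO-III minus SNU-216, 30.1% for KATO-III minus SNU-601 and 28.2% for SNU-216 minus SNU-601. MUC5AC measured 55.0 and 50.4 in SNU-216 CD133- cells, near the floor, so its log2 difference there could not go below -0.69. The changes of -3.50 in KATO-III and -2.08 in SNU-601 lie beyond that limit. A difference of either from SNU-216 was therefore set by the floor and does not compare measured falls. For MUC5AC the change in KATO-III minus that in SNU-216 was -3.25 on the log2 scale (limma, adjusted p = 0.000186), KATO-III minus SNU-601 -1.42 (adjusted p = 0.015) and SNU-216 minus SNU-601 1.83 (adjusted p = 0.00456), with 1 SNU-216 array under the floor. The MUC5AC value of -1.42 had an adjusted p of 0.0535 to 0.0754 without replicate 2 of any KATO-III or SNU-601 population, 0.0518 with a floor of 16 and 0.0634 with no filter on dim genes. For MUC20 these values were -0.36, -1.08 and -0.71 (adjusted p = 0.0226, 9.41e-05 and 0.000903), and the first rose to between 0.0565 and 0.0787 without any of 5 of the 8 KATO-III and SNU-216 arrays and was 0.0556 with no filter. For MUC1, SNU-216 minus SNU-601 was -0.33 (adjusted p = 0.0107), and -0.21 (adjusted p = 0.0762) with an offset of 100 in place of the floor. For MUC13, KATO-III minus SNU-601 was 0.37 (adjusted p = 0.0125, and 0.306 with a floor of 16 and 0.0669 with an offset of 100), and for TFF1 it was -0.88 (adjusted p = 0.000146).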

How the results depend on the processing

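Of 492 recomputed counts 461 kept within 1.5 times the reported value, and of 2145 recomputed single-gene values 2011 kept direction and side of the threshold. With genes above the floor on all 12 arrays only, which leaves MUC1 and MUC20 of the members by construction, members called lower in CD133+ cells numbered 2 in KATO-III, 1 in SNU-601 and 1 over all lines, 2 were higher in KATO-III than in SNU-216, 0 higher and 2 lower in KATO-III than in SNU-601, 2 lower in SNU-216 than in SNU-601, and 2 differed among lines. Over all lines, members called lower numbered 1 with no filter, 0 with arrays of a population averaged first, 0 with population as a random block and 0 with no cell line block, and 1 to 3 when 1 array was left out, with 1 without a KATO-III array. Genes called over all lines, 953 as reported, numbered 425 with no filter, 471 with a replicate block, 0 averaged (992 at an unadjusted p under 0.05), 1 with a random block (2297) and 0 with no cell line block, and 217 to 851 without 1 array. The reasons for these shifts were not tested. SNU-601 calls, 3298 as reported, ranged from 2176 to 3175 without 1 array, lowest without CD133+ replicate 1 (2176) or CD133- replicate 2 (2195). When 1 array was left out, uncalled values changed sign for MUC2 in KATO-III (-0.42 to 0.19), MUC5AC in SNU-216 (-0.69 to 0.18), TFF2 in KATO-III against SNU-601 (-0.033 to 0.0388), MUC2 in SNU-216 against SNU-601 (-0.0597 to 0.0983), MUC2 over all lines (-0.0011 to 0.15), AGR2 in KATO-III (-0.0128 to 0.00608, and 0.0398 with arrays centred on their medians), CREB3L4 in KATO-III (-0.12 to 0.23) and SNU-601 (-0.10 to 0.75), and C1GALT1 in SNU-216 (-0.37 to 0.17). Over all lines, adjusted p-values were 0.0994 for MUC5AC with no filter, 0.0741 to 0.0822 without a KATO-III array, and 0.0692 for TFF1 with a replicate block. Same-numbered arrays of different populations showed no shared deviation over the tested genes, with correlations of -0.0116 to 0.0276 over 15 pairs. Quantile normalization removes shifts of a whole array, so this cannot tell whether same-numbered arrays were handled together. With a replicate block the only calls lost among the named genes were TFF1 over all lines and MUC4 in SNU-601 (0.0599). Depth cannot be given for arrays, and values under the floor have no order.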

Other observations

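Averaged over fractions, 14 of the 16 tested mucous secretory genes were higher in KATO-III than in SNU-216 and 1 was lower, and 15 of 16 were lower in SNU-216 than in SNU-601, where 30.3% and 27.1% of all genes tested were (limma, adjusted p under 0.05). Of 17 tested O-glycan enzymes, 11 were higher in KATO-III than in SNU-216, beside the same 30.3%, and 2 were lower. Against SNU-601, 11 were lower in SNU-216, beside the same 27.1%, and 2 were higher. Genes that passed the filter through KATO-III and SNU-601 alone had to differ, so these counts are a description.

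CDX2, a transcription factor of intestinal epithelium, measured 1223 and 1306 in CD133+ and 1758 and 1824 in CD133- cells in KATO-III, 1992 and 2249 against 3168 and 2822 in SNU-601, and 8.65 to 41.8 in SNU-216. The CD133+ arrays were below the CD133- arrays in both expressing lines. CDX1 was under the floor on all 12 arrays, and KRT20, an enterocyte keratin, measured 13.6 and 25.0 in CD133+ against 248 and 229 in CD133- KATO-III cells. These genes were chosen after their values were seen.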
